A study of Mus musculus with 6 samples.

Results

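The interferon-stimulated genes described here are 33 genes chosen by name from the 22381 genes of the authors' deposited table. All 33 were found in it, each on 1 line. The RNA came from LSK cells of bone marrow, which are sorted as lineage-negative cells with Sca-1 and c-Kit on their surface and contain the stem cells of the blood with their earliest progeny. The mice were C57BL/6, 8 to 12 weeks old. The labels give 3 samples from Tgif1-/- mice and 3 from wild-type mice. Tgif1 encodes a homeodomain protein that represses transcription downstream of TGF-beta. The labels name no further allele, treatment or infection in either group, and the sources used here do not say which part of Tgif1 was removed. The table gives 1 value per group in FPKM (fragment counts scaled by transcript length and by library size), with no value per sample. No SD can therefore be given, and the sequencing depth is unknown.

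Interferons are secreted proteins that warn cells of virus infection. Type I interferons bind the receptor chains Ifnar1 and Ifnar2, whose kinases Jak1 and Tyk2 activate the transducer Stat2. It acts in a complex with Irf9, which binds a promoter sequence called the interferon-stimulated response element (ISRE). Interferon gamma acts through Ifngr1 and Ifngr2 and leads to binding at another sequence, the gamma-activated site (GAS). The induced genes block translation, degrade RNA, sense foreign nucleic acid or attack vacuoles that hold microbes. Blood stem cells are known to express many of these genes without infection, and interferon can drive resting stem cells into division.

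Promoter windows from RefSeq (GRCm38.p6), which run from 250 bases before to 50 bases after each start site, were found for 24 of the 33 genes, in 28 windows. The core of the ISRE was searched on both strands as GAAA, any 2 bases and GAAA, and 16 of the 28 windows (57.1%) and 16 of the 24 genes held it, against 3.44% of all 32851 windows. A longer form, the same letters followed by C, stood in 12 of the 28 windows, against 0.819% of all windows. The GAS was searched as TTC, any 3 bases and GAA, which reads the same on both strands, and 8 of the 28 windows (28.6%) held it, against 8.30% of all windows. Both kinds of match stood in 5 genes and neither in 5 genes. These matches are letters in a window and show no binding. Stretches of 9 of these genes with a match upstream of the start site are shown, so that the response element itself can be seen in its surroundings. Each is written on the strand of its gene, with 15 bases on either side, except that Irgm1 ends nearer to its last match. Capitals mark every match of the ISRE core or its reverse complement, some of them overlapping.
Ifit1, chr19:34640770-34640828, plus strand: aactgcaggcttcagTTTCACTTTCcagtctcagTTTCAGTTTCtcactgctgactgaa
Oas3, chr5:120777710-120777749, minus strand: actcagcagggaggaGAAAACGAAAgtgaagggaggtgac
Isg15, chr4:156200860-156200911, minus strand: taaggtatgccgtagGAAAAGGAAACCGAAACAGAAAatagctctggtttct
Stat2, chr10:128270261-128270300, plus strand: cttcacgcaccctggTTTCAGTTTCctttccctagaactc
Gbp2, chr3:142620589-142620628, plus strand: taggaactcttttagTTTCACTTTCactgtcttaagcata
Irgm1, chr11:48871426-48871465, minus strand: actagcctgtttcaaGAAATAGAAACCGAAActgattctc
Igtp, chr11:58199507-58199546, plus strand: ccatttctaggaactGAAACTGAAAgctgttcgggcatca
Irgm2, chr11:58214898-58214937, plus strand: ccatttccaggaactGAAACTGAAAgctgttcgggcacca
Bst2, chr8:71537572-71537617, minus strand: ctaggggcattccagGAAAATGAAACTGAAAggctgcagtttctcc

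**Figure D1:**
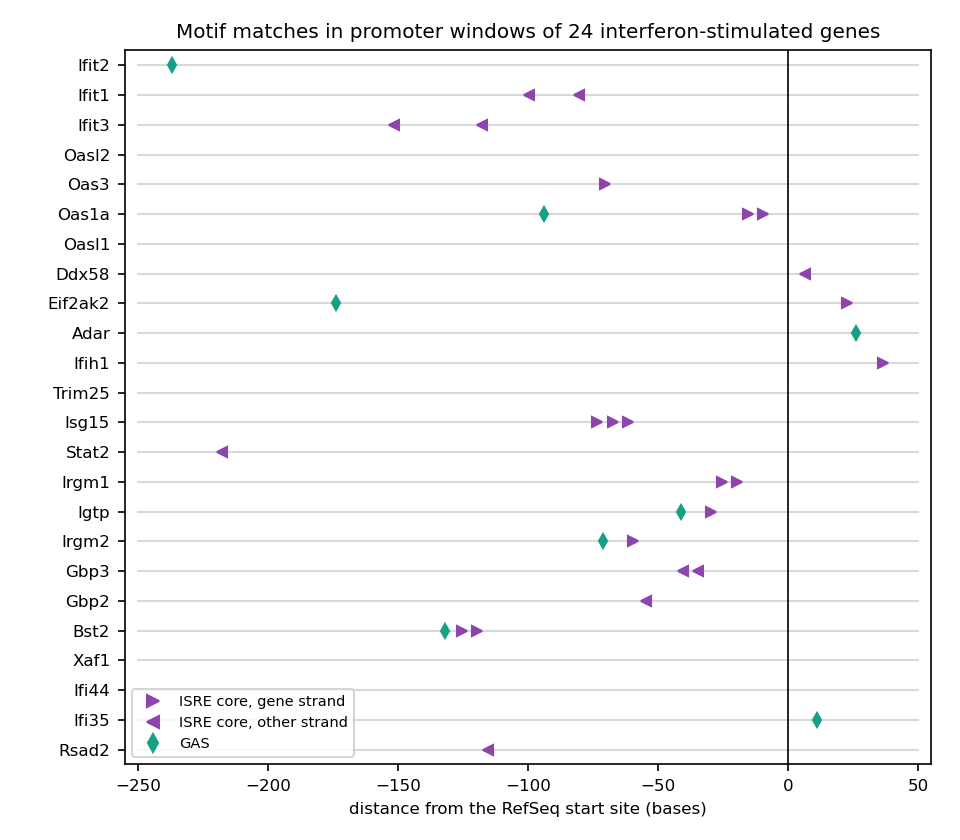
Positions of ISRE core matches (triangles, pointing right on the strand of the gene and left on the other) and GAS matches (diamonds) in RefSeq promoter windows, in bases from the start site, which is at 0. Each grey line is 1 of 24 genes, with the windows of a gene that has several laid over each other. Isg15 holds 3 ISRE core matches between positions -78 and -57, while Oasl2, Oasl1, Trim25, Xaf1 and Ifi44 hold no match of either kind.

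No interferon-stimulated gene passed the threshold used for a difference between the groups. A gene was called where the authors' Cuffdiff test was marked as run and its q-value, adjusted over all 10730 tested genes, was at or under 0.05. None of the 24 tested interferon-stimulated genes was called, and none had an unadjusted p under 0.05 (smallest p = 0.0568 and smallest q = 0.976 in the authors' deposited table). Of all tested genes 71 (0.662%) were called, 31 (0.289%) of them higher and 40 (0.373%) lower in cells labelled Tgif1-/-, and 580 (5.41%) had an unadjusted p under 0.05, so a list of this size would hold few or no calls at those rates. The tests of the other 9 genes failed, which leaves them with levels but no error. With each gene's error raised to at least the median of genes at like expression, the count called was again 0, against 0.197% of all genes.

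The level reached 1 FPKM in at least 1 group for 30 of the 33 genes. These 30 ran from 2.82 to 107 FPKM with a median of 17.6 FPKM in cells labelled Tgif1-/-, and from 2.32 to 107 FPKM with a median of 17.0 FPKM in cells labelled wild type. All 30 ratios lay within 1.5-fold of 1. The ratio of FPKM in cells labelled Tgif1-/- to that in cells labelled wild type was above 1 for 20 of the 30 and below 1 for 10. Their log2 ratios ran from -0.32 to 0.50 with a median of 0.15. Among all 12452 genes under the same rule, 42.2% had a ratio above 1 and the median log2 ratio was -0.03. Among the 21 of the 30 that were tested, 13 had a ratio above 1 and 8 below, with a median log2 ratio of 0.13, against 42.5% and -0.03 over the 9427 tested genes under that rule. These counts and medians are descriptions of group values, and no gene in them passed the test.

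**Figure D2:**
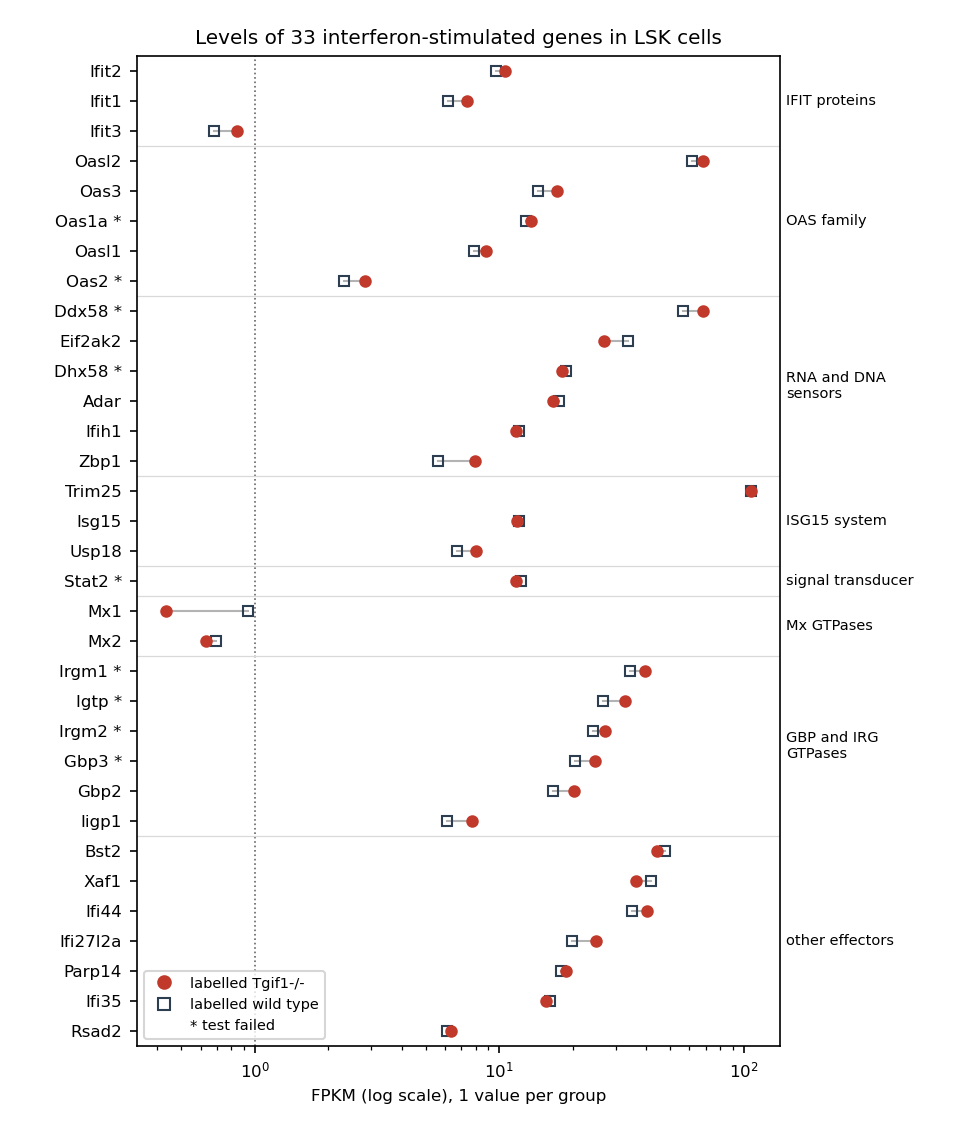
FPKM on a log axis in cells labelled Tgif1-/- (filled circles) and cells labelled wild type (open squares), 1 value per group, for the 33 genes grouped by role and ordered by mean level. Asterisks mark failed tests and the dotted line stands at 1 FPKM. Trim25 has the highest level, at 107 FPKM in each group, and Mx1, Mx2 and Ifit3 lie under 1 FPKM.

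What size of difference the data could hide was read from the 95% interval of each ratio, built from the standard error that the authors' statistic implies. That error belongs to the authors' model and is not a spread measured between samples. Across the 21 tested genes with at least 1 FPKM the implied standard error ran from 0.06 to 0.40 on the log2 scale, with a median of 0.22. All 21 intervals held a log2 ratio of 0. The interval lay wholly within 2-fold for 19 of the 21 genes and wholly within 1.5-fold for 7. The 2 genes whose interval reached past 2-fold were Zbp1 and Ifi27l2a.

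**Figure D3:**
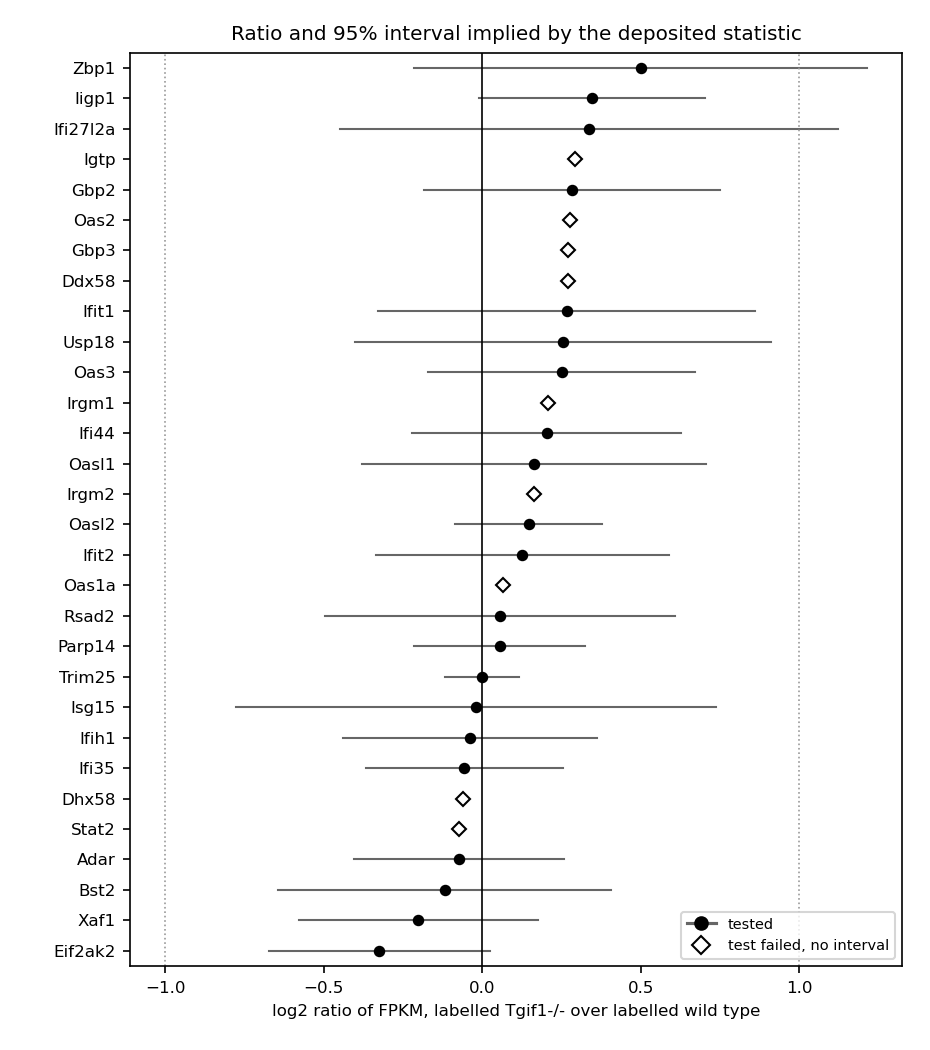
Log2 ratio of FPKM, cells labelled Tgif1-/- over cells labelled wild type, for the 30 genes reaching 1 FPKM in either group. Filled circles are tested genes with the 95% interval implied by the authors' statistic, open diamonds are genes whose test failed, and dotted lines mark 2-fold. All 21 intervals cross 0, and the ratios run from -0.32 for Eif2ak2 to 0.50 for Zbp1.

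The IFIT family includes proteins that bind viral RNA lacking the host's cap modifications and block its translation. The 3 IFIT genes described here lie near each other on chromosome 19, with gaps of 7.11 kb between Ifit2 and Ifit3 and 52.1 kb between Ifit3 and Ifit1. Ifit1 was at 7.41 FPKM in cells labelled Tgif1-/- and 6.16 FPKM in cells labelled wild type, a fold of 1.20 (95% interval 0.796 to 1.82; p = 0.381 in the authors' deposited table, from Cuffdiff's model). Ifit2 was at 10.6 FPKM in cells labelled Tgif1-/- and 9.70 FPKM in cells labelled wild type, a fold of 1.09 (95% interval 0.792 to 1.505). Both ratios were above 1, and both intervals included 1. Ifit3 was at 0.843 FPKM in cells labelled Tgif1-/- and 0.678 FPKM in cells labelled wild type, with a standard error of 0.60 on a log2 ratio of 0.31. Of the 50-base stretches in the annotated transcripts of Ifit3, 51.2% also stand in those of its copy Ifit3b, so its level depends on how shared reads were assigned.

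The OAS family includes enzymes that make 2'-5' linked oligoadenylates, which activate an RNase that degrades RNA. The OAS-like Oasl1 and Oasl2 share their fold. Oasl2 had the highest level of the family, at 67.9 FPKM in cells labelled Tgif1-/- and 61.3 FPKM in cells labelled wild type, and the narrowest interval (fold 1.11, 95% interval 0.942 to 1.30). Oas3 was at 17.2 FPKM in cells labelled Tgif1-/- and 14.4 FPKM in cells labelled wild type (fold 1.19, 95% interval 0.888 to 1.59). Oasl1 was at 8.83 FPKM in cells labelled Tgif1-/- and 7.88 FPKM in cells labelled wild type (fold 1.12, 95% interval 0.769 to 1.63). The 5 OAS and OAS-like genes among the 33 had ratios above 1, with a median log2 ratio of 0.16, and none passed the test. The tests of the other two failed. Oas1a stood at 13.5 FPKM in cells labelled Tgif1-/- and 12.9 FPKM in cells labelled wild type, and shares 57.6% of its 50-base stretches with Oas1g. Oas2, the lowest of the 30 genes, stood at 2.82 FPKM in cells labelled Tgif1-/- and 2.32 FPKM in cells labelled wild type. Further OAS genes stood in another list, and those reaching 1 FPKM in either group are named after their values were seen. Oas1c was at 2.78 FPKM in cells labelled Tgif1-/- and 3.52 FPKM in cells labelled wild type (fold 0.789), Oas1b at 4.05 FPKM in cells labelled Tgif1-/- and 4.03 FPKM in cells labelled wild type, and Oas1g at 6.70 FPKM in cells labelled Tgif1-/- and 6.59 FPKM in cells labelled wild type, none of them called. Oas2 and Oas3 lie 3.25 kb apart on chromosome 5, and Oasl2 and Oasl1 lie 11.01 kb apart on the same chromosome.

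Sensors of foreign nucleic acid included the genes with the largest ratios in both directions. Zbp1, a sensor of left-handed nucleic acid that can start necroptosis, was at 7.96 FPKM in cells labelled Tgif1-/- and 5.63 FPKM in cells labelled wild type. Its fold of 1.41 was the largest of the 30 genes, with a 95% interval from 0.861 to 2.32 and p = 0.171 in the authors' deposited table. Eif2ak2, the kinase PKR, which halts translation when it binds double-stranded RNA, was at 26.9 FPKM in cells labelled Tgif1-/- and 33.7 FPKM in cells labelled wild type. Its fold of 0.799 was the smallest of the 30, with a 95% interval from 0.627 to 1.02 and p = 0.0685 in the authors' deposited table, from Cuffdiff's model. Eif2ak2 lies on chromosome 17, 8.05 Mb from the end of Tgif1. With the raised error its unadjusted p was 0.108.

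The RIG-I-like receptors recognise viral RNA in the cytoplasm. Ddx58, which encodes RIG-I, was at 68.1 FPKM in cells labelled Tgif1-/- and 56.5 FPKM in cells labelled wild type, but its test failed. Ifih1, which encodes Mda5, was at 11.7 FPKM in cells labelled Tgif1-/- and 12.0 FPKM in cells labelled wild type (fold 0.973, 95% interval 0.737 to 1.28). Dhx58, which encodes Lgp2, a regulator of the other two, was at 18.0 FPKM in cells labelled Tgif1-/- and 18.8 FPKM in cells labelled wild type, and its test failed too. Within this family the level of Ddx58 was several times that of its relatives in both groups. Adar, which edits adenosine to inosine in double-stranded RNA and so keeps the cell's own RNA from being sensed, was at 16.7 FPKM in cells labelled Tgif1-/- and 17.5 FPKM in cells labelled wild type (fold 0.950, 95% interval 0.755 to 1.20). Adar shares 14.4% of its 50-base stretches with transcripts of its neighbour Chrnb2. Zbp1, Eif2ak2 and Adar were grouped with the RIG-I-like receptors here. Of these 6 genes, 2 had ratios above 1 and 4 below, with a median log2 ratio of -0.05.

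Isg15 is a ubiquitin-like protein joined to other proteins during the interferon response, and Usp18 removes it and also dampens the type I receptor. Isg15 was at 11.9 FPKM in cells labelled Tgif1-/- and 12.0 FPKM in cells labelled wild type, a fold of 0.987 with a wide 95% interval of 0.584 to 1.67. Usp18 was at 8.03 FPKM in cells labelled Tgif1-/- and 6.72 FPKM in cells labelled wild type (fold 1.19, 95% interval 0.758 to 1.88). Trim25, a ligase that acts on RIG-I and on ISG15 conjugation, was at 107 FPKM in each group, with a fold of 0.999 (95% interval 0.921 to 1.08). That is the narrowest interval of the 21 tested genes. The implied standard error of Trim25 was 0.06, against a median of 0.18 for tested genes at like expression. Stat2, the transducer that carries the type I signal to these promoters, was at 11.7 FPKM in cells labelled Tgif1-/- and 12.3 FPKM in cells labelled wild type, and its test failed.

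The guanylate-binding proteins (GBP) and the immunity-related GTPases (IRG) attack the vacuoles of intracellular microbes in the mouse. The 6 such genes among the 33 all had ratios above 1, with log2 ratios from 0.16 to 0.35 and a median of 0.28, but only 2 of the 6 were tested. This did not hold for every GBP gene. Among the other listed GBP genes reaching 1 FPKM in either group, Gbp5 and Gbp7 had ratios above 1. Gbp6, Gbp8, Gbp9 and Gbp10 had ratios below 1. Iigp1, an effector IRG on chromosome 18, was at 7.77 FPKM in cells labelled Tgif1-/- and 6.11 FPKM in cells labelled wild type. Its fold of 1.27 had a 95% interval from 0.993 to 1.63, and its p of 0.0568 in the authors' deposited table was the smallest of the 24 tested genes. The implied standard error of Iigp1 was 0.18, against 0.28 for genes at like expression, and with the raised error its unadjusted p was 0.211. Gbp2 was at 20.1 FPKM in cells labelled Tgif1-/- and 16.5 FPKM in cells labelled wild type (fold 1.22, 95% interval 0.880 to 1.68). Both intervals included 1.

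The other 4 of these GTPase genes had failed tests. Gbp3, which lies 47.4 kb from Gbp2 on chromosome 3, was at 24.6 FPKM in cells labelled Tgif1-/- and 20.4 FPKM in cells labelled wild type. Irgm1, a regulatory IRG that keeps effector IRGs off the cell's own membranes and is known from knockout mice to be needed by blood stem cells, was at 39.5 FPKM in cells labelled Tgif1-/- and 34.2 FPKM in cells labelled wild type. Igtp (Irgm3) was at 32.6 FPKM in cells labelled Tgif1-/- and 26.6 FPKM in cells labelled wild type. The ratio of each was above 1, with no error to set it against. Irgm2 was at 27.0 FPKM in cells labelled Tgif1-/- and 24.2 FPKM in cells labelled wild type. Igtp and Irgm2 lie 7.44 kb apart on chromosome 11, and 11.8% of the 50-base stretches of Igtp also stand in Irgm2, so their values may share reads. The promoter stretches of Igtp and Irgm2 carry the same ISRE core match.

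The Mx GTPases block virus replication, and Mx1 is disrupted in C57BL/6 and most other laboratory strains. Both Mx genes lay under 1 FPKM. Mx1 was at 0.432 FPKM in cells labelled Tgif1-/- and 0.939 FPKM in cells labelled wild type, and its log2 ratio of -1.12 had a standard error of 0.92. Mx2 was at 0.632 FPKM in cells labelled Tgif1-/- and 0.695 FPKM in cells labelled wild type. The 3 genes left out by the minimum of 1 FPKM were therefore Mx1, Mx2 and Ifit3, with Mx1 just under it, and the lowest gene inside it was Oas2.

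The remaining 7 effectors were all tested, and their ratios lay on both sides of 1, with 4 above and 3 below. Ifi27l2a, a small membrane protein, was at 25.0 FPKM in cells labelled Tgif1-/- and 19.8 FPKM in cells labelled wild type (fold 1.26, 95% interval 0.733 to 2.18). It shares its listed position with Ifi27l2b, at 0.245 FPKM in cells labelled Tgif1-/- and 0.240 FPKM in cells labelled wild type. Ifi44 was at 40.3 FPKM in cells labelled Tgif1-/- and 35.0 FPKM in cells labelled wild type (fold 1.15, 95% interval 0.859 to 1.55). Neither interval left out 1.

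Bst2, or tetherin, which holds budding viruses at the cell surface, was at 44.1 FPKM in cells labelled Tgif1-/- and 47.9 FPKM in cells labelled wild type (fold 0.921, 95% interval 0.640 to 1.32). Xaf1, a promoter of apoptosis, was at 36.4 FPKM in cells labelled Tgif1-/- and 41.8 FPKM in cells labelled wild type (fold 0.870, 95% interval 0.670 to 1.13). This pair had the lowest ratios of the 7. Parp14, an ADP-ribosyltransferase, was at 18.7 FPKM in cells labelled Tgif1-/- and 18.0 FPKM in cells labelled wild type (fold 1.04, 95% interval 0.862 to 1.25). Ifi35 was at 15.5 FPKM in cells labelled Tgif1-/- and 16.1 FPKM in cells labelled wild type (fold 0.961, 95% interval 0.775 to 1.19). Rsad2, or viperin, which makes a chain-terminating nucleotide, was at 6.36 FPKM in cells labelled Tgif1-/- and 6.11 FPKM in cells labelled wild type (fold 1.04, 95% interval 0.709 to 1.52). All 7 intervals included 1.

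The order of the levels was nearly the same in both groups. The 10 highest genes in cells labelled Tgif1-/- were also the 10 highest in cells labelled wild type, led by Trim25, Ddx58 and Oasl2. Across the 30 genes Pearson's r of log2 FPKM between the groups was 0.989, a description over genes that share the same libraries. Set among all 12452 genes reaching 1 FPKM in either group, the mean levels of the 30 ran from percentile 12.1 for Oas2 to percentile 89.5 for Trim25, with a median of 50.2, so none lay in the top 10%. Failed tests made up 9 of the 30 genes (30%), against 24.2% of all genes under that rule. The 9 failed genes had a median log2 ratio of 0.21, with 7 ratios above 1 and 2 below, against a median of -0.03 over all failed genes.

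**Figure D4:**
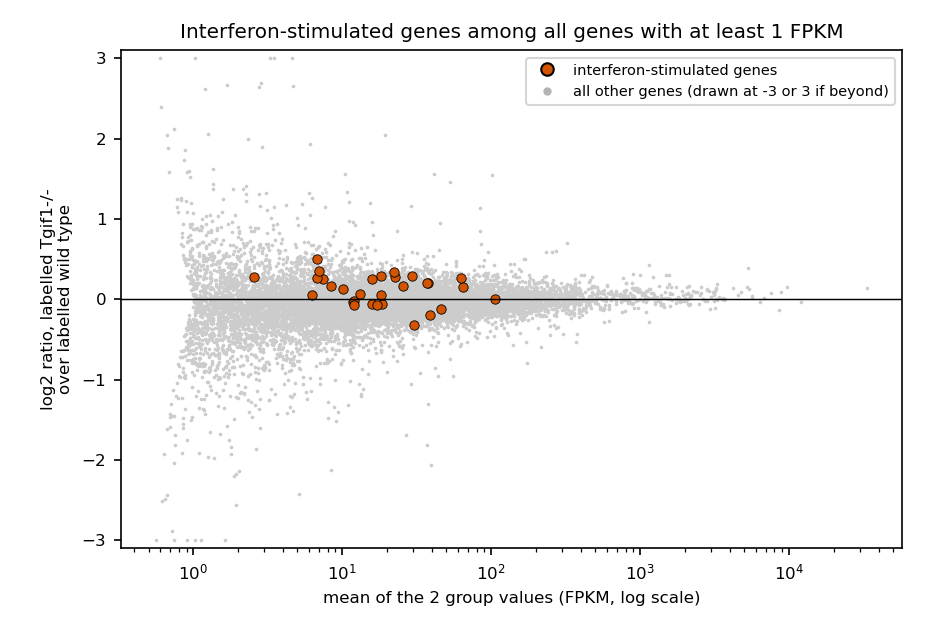
Log2 ratio, cells labelled Tgif1-/- over cells labelled wild type, against the mean of both FPKM values on a log axis, for genes reaching 1 FPKM in either group and values above 0 in both. Orange points are the 30 interferon-stimulated genes, between -0.32 and 0.50, and grey points are the other genes, drawn at -3 or 3 where they lie beyond.

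Other genes of the pathway were taken from 6 further lists, which hold 154 genes of the table, 85 of them tested. Across these lists 1 of the 85 tested genes was called, against 0.662% of all tested genes. It was Tlr3, the endosomal receptor for double-stranded RNA, in the list of sensing adaptors and receptors. Tlr3 was at 1.36 FPKM in cells labelled Tgif1-/- and 1.07 FPKM in cells labelled wild type, a fold of 1.27 (95% interval 1.13 to 1.43; q = 0.0128 in the authors' deposited table). The implied standard error of Tlr3 was 0.09, against a median of 0.48 for tested genes at like expression, and with the raised error its adjusted p was 1.00, which ended the call. In that list 6 genes had ratios above 1 and 8 below, with a median log2 ratio of -0.03.

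The ligands were scarcely detected. Of 17 interferon genes in the table, 9 were listed at 0 in both groups, among them Ifnb1, which encodes interferon beta, and 1 reached 1 FPKM in a group. That gene, Ifnk, was at 0.750 FPKM in cells labelled Tgif1-/- and 1.30 FPKM in cells labelled wild type (p = 0.261 in the authors' deposited table). Ifna6 was listed at 0.391 FPKM in cells labelled Tgif1-/- and at 0 in cells labelled wild type, with p = 0.0426 in the authors' deposited table, and was named after its values were seen. Ifng was at 0.0456 FPKM in cells labelled Tgif1-/- and listed at 0 in cells labelled wild type, with too few reads to test.

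Of 17 receptor and signalling genes 16 reached 1 FPKM in either group, with 0 of 9 tested genes called by Cuffdiff and 0 at an unadjusted p under 0.05, 8 ratios above 1 and 8 below, and a median log2 ratio of -0.01. Ifnar1 was at 61.4 FPKM in cells labelled Tgif1-/- and 75.4 FPKM in cells labelled wild type (fold 0.815, 95% interval 0.609 to 1.09). The interval included 1. Among the 9 interferon regulatory factors 0 of 4 tested were called by Cuffdiff, 0 had an unadjusted p under 0.05, and 2 ratios were above 1 and 7 below. Irf8 was at 35.3 FPKM in cells labelled Tgif1-/- and 41.5 FPKM in cells labelled wild type, and Irf5 at 33.9 FPKM in cells labelled Tgif1-/- and 42.1 FPKM in cells labelled wild type. The median log2 ratio of the regulatory factors was -0.22.

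Further induced genes were divided into antiviral and GTPase genes and genes of antigen presentation. Of 51 tested antiviral and GTPase genes 0 were called by Cuffdiff and 3 had an unadjusted p under 0.05, 2 higher and 1 lower, against 5.41% of all tested genes. In that list 70 genes reached 1 FPKM in a group, 47 with ratios above 1 and 23 below and a median log2 ratio of 0.07. Its smallest p-values belonged to Gbp8, at 1.57 FPKM in cells labelled Tgif1-/- and 2.36 FPKM in cells labelled wild type (p = 0.0157 and q = 0.554 in the authors' deposited table), and Ms4a4b, at 5.94 FPKM in cells labelled Tgif1-/- and 3.68 FPKM in cells labelled wild type (p = 0.0172 and q = 0.576 there). Of 12 tested antigen presentation genes 0 were called by Cuffdiff and 3 were higher at an unadjusted p under 0.05, and 19 genes reached 1 FPKM in a group, 14 with ratios above 1 and 5 below. The median log2 ratio of that list was 0.15. The class I genes H2-Q6 and H2-D1 had its smallest p-values. H2-Q6 was at 68.0 FPKM in cells labelled Tgif1-/- and 48.7 FPKM in cells labelled wild type (p = 0.00826 and q = 0.394 in the authors' deposited table). H2-D1 was at 518 FPKM in cells labelled Tgif1-/- and 428 FPKM in cells labelled wild type (p = 0.0318 and q = 0.756 in the authors' deposited table, from Cuffdiff's model). With the raised error the unadjusted p was 0.161 for H2-D1 and 0.0127 for H2-Q6. For Gbp8 and Ms4a4b it was 0.168 and 0.0357. Class I genes are close relatives, so their values may share reads.

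**Figure D5:**
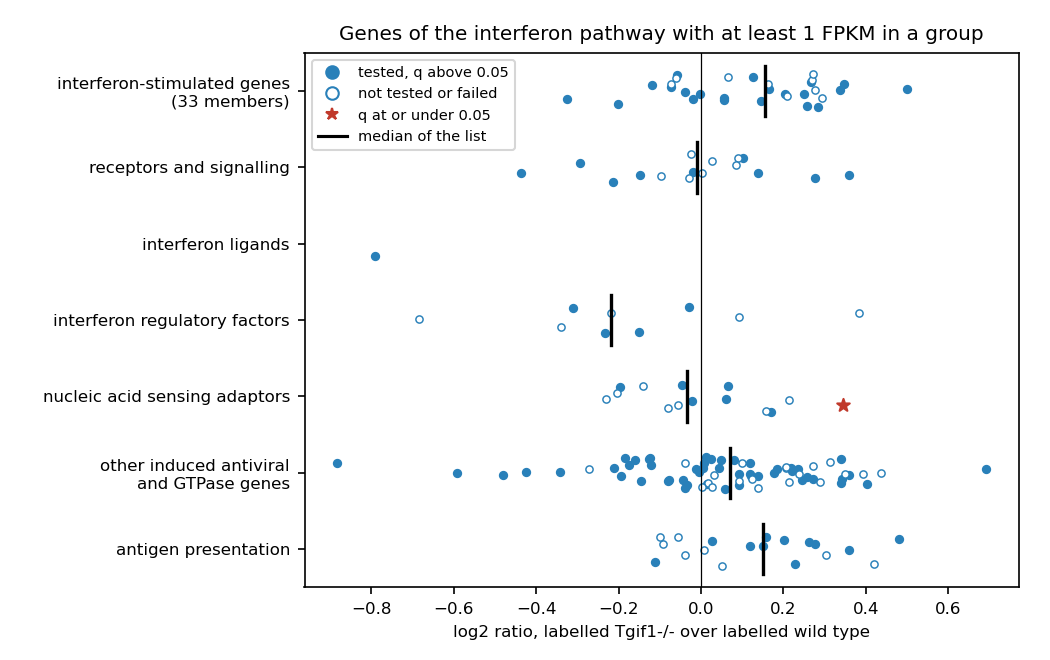
Log2 ratio, cells labelled Tgif1-/- over cells labelled wild type, for each gene reaching 1 FPKM in either group, by list. Filled points are tested genes with q above 0.05, open points genes without a test, the star marks Tlr3 at 0.35, and bars are list medians, 0.15 for the interferon-stimulated genes and -0.22 for the interferon regulatory factors.

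The target gene and the cell type were checked once. Tgif1 was at 88.6 FPKM in cells labelled Tgif1-/- and 71.5 FPKM in cells labelled wild type, with a failed test, so its value does not bear out the label, and the directions given are between groups as labelled. The defining markers of LSK cells were present, with Kit at 193 FPKM in cells labelled Tgif1-/- and 202 FPKM in cells labelled wild type, with a failed test. All 12 genes of the LSK marker list reached 1 FPKM in either group, with 4 ratios above 1 and 8 below. Their median log2 ratio was -0.04, and 0 of 5 tested were called by Cuffdiff. Ly6a, which encodes the sorting marker Sca-1, is itself known to be induced by interferon and was named after its values were seen. It had the largest ratio of that list, at 120 FPKM in cells labelled Tgif1-/- and 88.9 FPKM in cells labelled wild type (fold 1.35, 95% interval 0.995 to 1.82; p = 0.0536 and q = 0.949 in the authors' deposited table).

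Markers of other cells that a gate could hold were examined as lists, and none of their genes was listed at 0 in both groups, but many were barely detected. Of 14 T and NK cell genes 7 reached 1 FPKM in either group, and Cd3e, of the T cell receptor complex, was at 0.134 FPKM in cells labelled Tgif1-/- and 0.250 FPKM in cells labelled wild type. A sort of lineage-negative cells is meant to remove mature T, B and monocytic cells. Summed levels were 287 FPKM in cells labelled Tgif1-/- and 334 FPKM in cells labelled wild type for 11 plasmacytoid dendritic cell genes, a type known for making interferon. Most of that sum was Tcf4 and Runx2, the latter at 111 FPKM in cells labelled Tgif1-/- and 127 FPKM in cells labelled wild type. The marker Siglech was at 0.881 FPKM in cells labelled Tgif1-/- and 1.29 FPKM in cells labelled wild type. All 8 genes of the list reaching 1 FPKM in either group had ratios below 1. Under that level, Klk1 was at 0.420 FPKM in cells labelled Tgif1-/- and listed at 0 in cells labelled wild type. Its unadjusted p was 0.0150 in the authors' deposited table, from Cuffdiff's model, and it was named after its values were seen. At an unadjusted p under 0.05 the list held 1 gene higher and 1 lower. That list includes Bst2 itself, and its 1 called gene was Tcf4, at 106 FPKM in cells labelled Tgif1-/- and 126 FPKM in cells labelled wild type. The implied standard error of Tcf4 was 0.05, against a median of 0.18 at like expression, and with the raised error its adjusted p was 1.00, which ended the call. Summed levels for 14 T and NK cell genes were 359 FPKM in cells labelled Tgif1-/- and 362 FPKM in cells labelled wild type, and for 13 monocyte and macrophage genes 435 FPKM in cells labelled Tgif1-/- and 428 FPKM in cells labelled wild type, with 0 called by Cuffdiff in each list. Most of either sum was 1 gene: Nkg7, of cytotoxic granules, was at 316 FPKM in cells labelled Tgif1-/- and 313 FPKM in cells labelled wild type, and the lysozyme gene Lyz2 at 280 FPKM in cells labelled Tgif1-/- and 268 FPKM in cells labelled wild type. At an unadjusted p under 0.05 there was 1 T and NK cell gene, lower, and 0 monocyte and macrophage genes. Mast cell and basophil markers summed to 396 FPKM in cells labelled Tgif1-/- and 162 FPKM in cells labelled wild type. Of 9 tested, 4 were called higher, against 0.289% of all tested genes. B cell markers summed to 59.7 FPKM in cells labelled Tgif1-/- and 121 FPKM in cells labelled wild type. Of 9 tested, 4 were called lower, against 0.373% of all tested genes. With the raised error 4 genes were again called in the mast cell and basophil list and 4 in the B cell list, against 0.197% of all genes. Neutrophil markers summed to 85.3 FPKM in cells labelled Tgif1-/- and 157 FPKM in cells labelled wild type, with 9 of 10 ratios below 1 and a median log2 ratio of -0.95 over the tested genes. None of the 9 tested was called by Cuffdiff, and 6 were lower at an unadjusted p under 0.05. Of all tested genes 5.41% had such a p, in either direction. Erythroid markers summed to 741 FPKM in cells labelled Tgif1-/- and 606 FPKM in cells labelled wild type, with 0 of 10 tested called by Cuffdiff and 1 higher at an unadjusted p under 0.05. The part of these cells in the levels of the interferon-stimulated genes was not tested. In such bulk samples fewer cells of a type and less RNA per cell cannot be told apart.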

How the data were processed

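The submitters' processing notes name TopHat (alignment) and Cuffdiff (group comparison), without versions. The authors deposited 1 FPKM value per group, and per the file headers value_1 is the Tgif1 knockout. The deposited log2 fold change has wild type on top and was turned round here, so positive means higher in cells labelled Tgif1-/-. Each deposited p-value equals the two-sided normal value of the test statistic (10683 genes with values above 0, within 0.001), so log2 ratio over statistic was used as the standard error. Each deposited q-value equals a Benjamini-Hochberg adjustment over the 10730 tested genes. Failed genes keep their FPKM, with p set to 1. Replicates may be technical, as the labels name no animals. Low FPKM values showed no steps of whole reads (at most 18 of 1267 genes shared a ratio), so no count test was possible.

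Members and lists were chosen with earlier results of these data known. Every member with at least 1 FPKM in a group is given with its values. From each pathway list the called genes were named or, with none called, the 2 with the smallest p; 1 gene so selected is not reported here. The raised error is at least the median of tested genes in the same of 20 expression bins. Identifiers are of the mouse although the notes list the human build hg19. Chromosomes and gaps between genes come from the table. Its mouse build is not stated, and 0 of the 33 members stood at their GRCm38 position. Promoters are RefSeq's, GRCm38.p6. Transcript sharing used 50-base stretches of GENCODE M21 on both strands. It is not stated whether counting used strand. Software was Python 3.11.15, pandas 2.3.3, numpy 2.4.6, scipy 1.17.1 and matplotlib 3.10.9, with the calculations tested on simulated data.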

Additional observations from a re-analysis of the deposited data

How the results depend on the processing

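The count of 0 called interferon-stimulated genes was 0 in each of 7 alternatives: q thresholds of 0.01 and 0.1, an unadjusted p of 0.05, the raised error, centring, and minimum levels of 1 and 5 FPKM. Most of these could not have differed. A stricter q and the minimum levels can only remove calls, and the raised error can only keep or enlarge p. The smallest q and p given above already settle a q of 0.1 and an unadjusted p of 0.05. Of the 7, centring alone was not settled beforehand. For the other pathway lists, the 1 called gene became 0 at a q of 0.01, 0 with the raised error and 0 with a minimum of 5 FPKM, and 8 (7 higher, 1 lower) at an unadjusted p of 0.05. The count of 20 members with ratios above 1 was 13 of 21 over tested genes alone, where fewer genes enter, and 19 to 22 in the other 6 alternatives, with a median log2 ratio of 0.13 to 0.19 over all 7. Centring on the median of tested genes, -0.03, turned the log2 ratio to 0.0131 for Isg15 and to 0.0299 for Trim25. ISRE core matches stood in 16 genes, 12 with the longer core and 9 on the gene's own strand alone. No paired analysis was possible because the groups share no replicate numbers and the table holds no value per sample. For the same reason no sample could be left out. The unknown depth limits Mx1, Mx2, Ifit3 and the ligands most.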

Other observations

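The guanylate-binding protein genes of the mouse stand in a pair of clusters, on chromosomes 3 and 5, and were compared after their values were seen. On chromosome 3, Gbp2, Gbp3, Gbp5 and Gbp7 had ratios above 1. Gbp5, a GTPase that aids inflammasome activation, was at 8.68 FPKM in cells labelled Tgif1-/- and 6.61 FPKM in cells labelled wild type, with a failed test, and Gbp7 at 26.2 FPKM in cells labelled Tgif1-/- and 24.1 FPKM in cells labelled wild type. On chromosome 5, Gbp6, Gbp8, Gbp9 and Gbp10, the genes there reaching 1 FPKM in either group, were under 3 FPKM and had ratios below 1. Gbp4 on the same chromosome had a ratio above 1, at 0.527 FPKM in cells labelled Tgif1-/- and 0.401 FPKM in cells labelled wild type (fold 1.31), and Gbp11 was at 0.269 FPKM in cells labelled Tgif1-/- and 0.324 FPKM in cells labelled wild type with too few reads to test. Gbp6 was at 1.65 FPKM in cells labelled Tgif1-/- and 2.30 FPKM in cells labelled wild type, Gbp9 at 1.22 FPKM in cells labelled Tgif1-/- and 1.36 FPKM in cells labelled wild type, and Gbp10 at 1.17 FPKM in cells labelled Tgif1-/- and 1.57 FPKM in cells labelled wild type. None of these genes was called, and the difference between the clusters was not tested.

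Irf7, the regulatory factor that amplifies type I interferon production and is itself induced, stood at 19.3 FPKM in cells labelled Tgif1-/- and 14.8 FPKM in cells labelled wild type, and Irf9 at 37.1 FPKM in cells labelled Tgif1-/- and 43.2 FPKM in cells labelled wild type. Both tests failed, so neither value has an error.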
